A study of Mus musculus with 32 samples.

Results

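The genes examined here are 5 whose values set every regulatory T cell (Treg) library apart from all other libraries of the study: Ctse, Gdpd3 and 3 copies of one ribosomal protein gene, Rps3a1, Rps3a2 and Rps3a3. They are 5 of 16741 genes measured, and all 5 were found by symbol. They were chosen from the values of the 5 Treg libraries against the 26 other libraries of the same table, so that contrast is described below without a test. Ctse, Gdpd3 and Rps3a1 were the low ones in Treg, and Rps3a2 and Rps3a3 the high ones.

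The study modelled acute graft-versus-host disease (GVHD) in mice: T cells of C57Bl6 donors attack the tissues of Balb/c recipients, which differ in major histocompatibility genes. Conventional CD4 T cells, CD8 T cells and Treg of donor origin were sorted from spleen and lymph nodes and measured by bulk RNA sequencing. For CD4 and for CD8 cells, 2 libraries each were made before transplantation (day 0), 3 from untreated syngeneic controls, 4 from untreated allogeneic recipients with GVHD and 4 from allogeneic recipients that were also given Treg, called Treg-treated here. For Treg, 2 libraries were made at day 0 and 3 from Treg-treated recipients. The later libraries carry day 6 in their titles and day 8 in the series text. The series text gives C57Bl6 as the source of all 3 sorted populations, and the labels name no transgene, deletion, sex or age. The syngeneic recipients' strain, the sorting markers and any pooling of animals are not given in the sources used here. Replicates are labelled JL019 or JL027, a prefix of unstated meaning, and in most groups also by number. Nothing states that replicates of a group came from separate animals, so p-values measure only the spread between these libraries, which may be technical.

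Cathepsin E, the product of Ctse, is an aspartic protease of endosomal compartments that has been linked to antigen processing in immune cells. Gdpd3 encodes a membrane enzyme of the glycerophosphodiester phosphodiesterase family that cleaves lysophospholipids and releases lysophosphatidic acid. Rps3a1 encodes a protein of the small ribosomal subunit needed in every cell. Ribosomal protein genes have many retrocopies in the mouse genome, which arose from spliced RNA, lack introns and closely resemble the parent transcript. Short reads that fit several copies cannot be placed by sequence alone, so the level of each single Rps3a copy is uncertain, and the sum of the copies is given beside them. kallisto, named in the submitters' processing notes without a role, is a tool that shares such reads among transcripts by likelihood.

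Values are normalised counts, which were scaled between libraries by the authors, and the depth behind them is unknown. Averaged over genes, the 31 libraries had 1227 to 2385 normalised counts. Of 10 Treg markers, Il2ra, Ikzf2 and Lrrc32 were higher in all 5 Treg libraries than in any other, whereas Foxp3, the defining transcription factor, had 198 to 442 in Treg and 0 to 1145 elsewhere. CD4 syngeneic replicate JL019-2 stood apart, with a summed level of 8 myeloid and dendritic markers of 849068 against 17196 and 23685.5 in the other CD4 syngeneic libraries, so limma results on its group are also given without it. In bulk RNA, fewer cells of a type and less RNA per cell cannot be told apart.

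Ctse (ENSMUSG00000004552) spans chr1:131638314-131675507 on GRCm38, and Gdpd3 (ENSMUSG00000030703) spans chr7:126766414-126775645. Rps3a1 (ENSMUSG00000028081) lies at chr3:86137940-86142668, and RefSeq calls all 3 of these genes protein coding. The Rps3a1 span also holds the small RNA genes Snord73a and Snord73b. Rps3a2 (ENSMUSG00000062611), at chr14:88122952-88123833, and Rps3a3 (ENSMUSG00000059751), at chr13:108670580-108671443, are pseudogenes in RefSeq, with spans of 882 and 864 bases against 4729 bases for Rps3a1. The 5 genes thus lie on 5 chromosomes. Rps3a3 lies within the span of Pde4d, a phosphodiesterase gene, and without strand-aware counting reads from overlapping genes cannot be told apart. Pde4d had 350.2 to 1149 in Treg and 77.5 to 1053 in the other libraries, ranges that overlapped.

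The promoter stretches of Gdpd3 and Rps3a1 are shown because both genes were low in every Treg library, and they are the only members with an entry in the RefSeq promoter table (GRCm38.p6). Each is the 250 bases before the gene's start, at chr7:126766164-126766413 on the plus strand for Gdpd3 and at chr3:86142669-86142918 on the minus strand for Rps3a1. Capitals mark CCGGAAG, a core sequence bound by ETS factors.
Gdpd3: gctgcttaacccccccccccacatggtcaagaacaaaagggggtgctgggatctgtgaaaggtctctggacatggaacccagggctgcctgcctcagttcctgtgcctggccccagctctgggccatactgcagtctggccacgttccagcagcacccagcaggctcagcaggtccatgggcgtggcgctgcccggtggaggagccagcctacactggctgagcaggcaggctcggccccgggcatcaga
Rps3a1: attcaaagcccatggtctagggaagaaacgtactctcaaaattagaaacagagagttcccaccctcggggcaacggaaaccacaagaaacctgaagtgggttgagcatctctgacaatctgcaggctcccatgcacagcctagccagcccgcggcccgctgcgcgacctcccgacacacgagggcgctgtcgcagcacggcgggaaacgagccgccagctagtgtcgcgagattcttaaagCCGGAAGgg
The stretches differ in CpG number, with 19 in Rps3a1 and 6 in Gdpd3, where the median of 32851 promoters is 6. GC content was 58.4% in Rps3a1 and 65.2% in Gdpd3, against a median of 52.4%. On either strand, TATAAA (in 12.4% of the promoters), CCAAT (33.9%) and GGGCGG (32.7%) were in neither stretch. CCGGAAG, which overlaps none of them and was searched for after the Rps3a1 stretch had been read, is in 6.91% of promoters. A match is a description of letters and no evidence of binding, and no match says only that these letters are not in this window.

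Ctse was among the abundant transcripts of conventional T cells and low in Treg. At day 0 the Treg libraries had 930.0 (JL019) and 1067 (JL027) normalised counts, and after transplantation 644 (JL019-1), 549.6 (JL019-2) and 793 (JL027). In the 26 other libraries the lowest value was 9044, the median 17929 and the highest 30247. Each Treg library thus lay below every other library, and the median was 22.6-fold higher outside Treg. Treg still had at least 549.6 normalised counts of Ctse, so the transcript was lower and not lost.

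Gdpd3 was nearly absent from Treg. Treg had 17.3 (JL019) and 8.996 (JL027) normalised counts of Gdpd3 at day 0 and 6.97 (JL019-1), 3.34 (JL019-2) and 6.87 (JL027) after transplantation. The other libraries ran from 250.6 through a median of 649.6 to 2061. Each Treg library again lay below all others, with a 93.2-fold difference of medians and a 14.5-fold step between the nearest libraries.

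The Rps3a copies moved in opposite directions. Rps3a1, the protein-coding gene, had 3915 and 3257 normalised counts in day 0 Treg and 2050.3, 2586 and 2521 in Treg after transplantation, against 16339.6 to 55979 (median 26585) in the other libraries. Rps3a2 had 11398 and 9826 at day 0 and 6666, 7495 and 6964.5 afterwards, against 12.6 to 99.9 (median 36.8) outside Treg. Rps3a3 had 8035 and 6104 at day 0 and 3667, 4278 and 3895 afterwards, against a median of 14.8 and a highest value of 41.6, and was listed at 0 in CD4 allogeneic replicate JL027-2. The median of Rps3a1 was thus 10.3-fold higher outside Treg, while those of Rps3a2 and Rps3a3 were 204-fold and 288-fold higher in Treg.

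**Figure D1:**
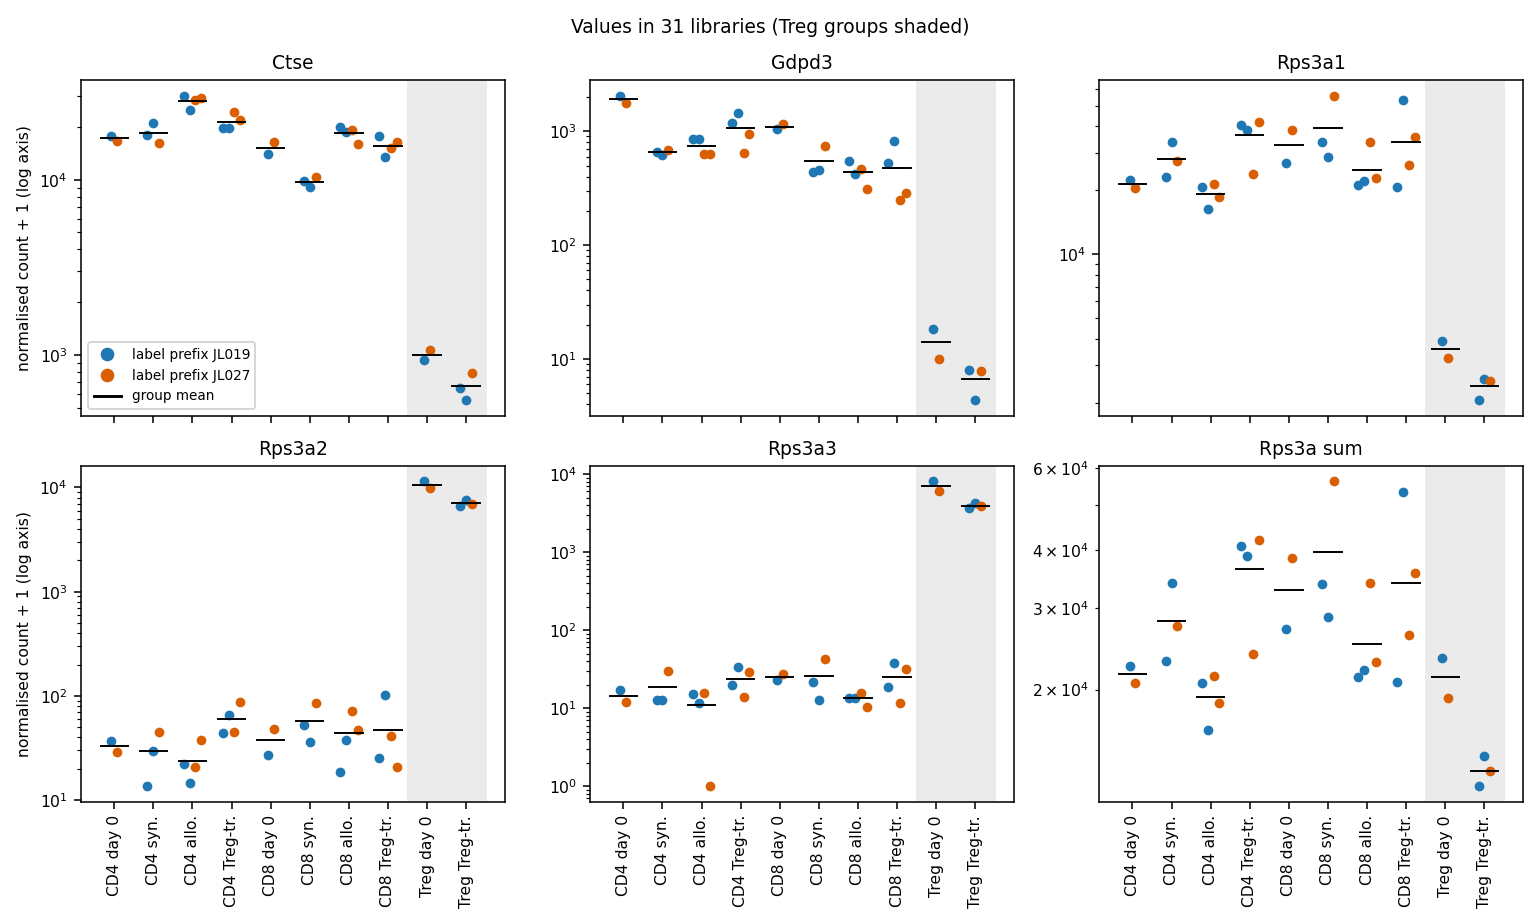
Normalised count plus 1 on a log axis for the 5 genes and the sum of the 3 Rps3a copies in 31 libraries by group; points are libraries coloured by label prefix, black lines are group means, and the 2 Treg groups are shaded (Treg Treg-tr. is Treg from Treg-treated recipients). Ctse and Gdpd3 are low in all 5 Treg libraries, Rps3a1 is low and Rps3a2 and Rps3a3 are high there, and for the sum the day 0 Treg libraries lie within the range of the others while the 3 later ones lie below it.

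The sum of the 3 Rps3a copies did not separate Treg from the other libraries. It was 23348 and 19188 in day 0 Treg and 12384, 14359 and 13381 in Treg after transplantation, against 16364 to 56105 (median 26635) elsewhere. The day 0 Treg values lay inside the range of the other libraries, and the 3 later values lay below it. The difference of medians was 1.86-fold for the sum, against 10.3-fold for Rps3a1 alone.

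The split of the sum was nearly the same in all libraries of a kind. In Treg, Rps3a1 held 16.6% to 18.8% of it, Rps3a2 48.8% to 53.8% and Rps3a3 29.1% to 34.4%. In the other 26 libraries Rps3a1 held 99.73% to 99.89%. Rps3a2 and Rps3a3 together took 81.2% to 83.4% in Treg and 0.106% to 0.271% elsewhere. The 2 pseudogenes stood at 1.42 to 1.82 parts of Rps3a2 to 1 of Rps3a3 in Treg, and at 0.643 to 4.91 in the 25 other libraries with a value for Rps3a3. No library had an intermediate split, including those of CD4 and CD8 cells from the recipients that were given Treg.

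**Figure D2:**
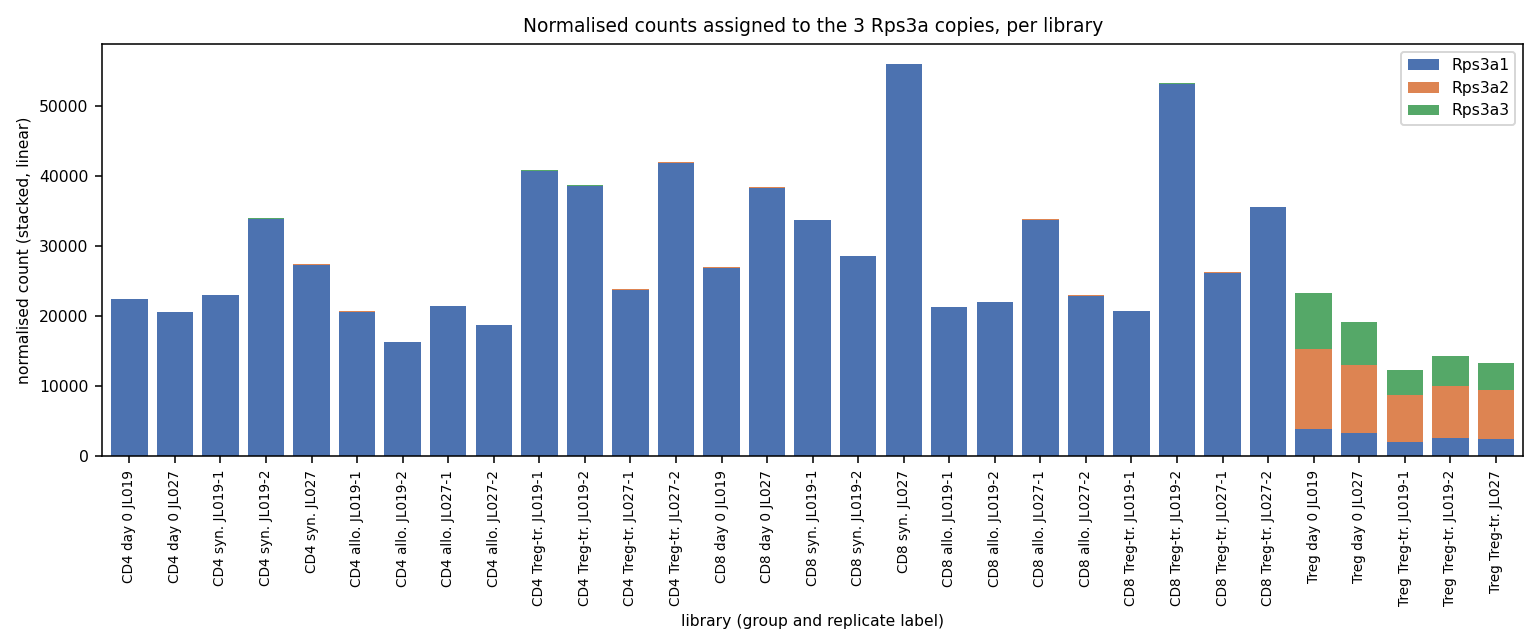
Normalised counts of Rps3a1, Rps3a2 and Rps3a3 stacked in each of the 31 libraries, on a linear axis from 0, with libraries named by group and replicate label. In the 26 libraries that are not Treg the bar is almost all Rps3a1, while in the 5 Treg libraries Rps3a2 and Rps3a3 together make up 81.2% to 83.4% of it.

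Other small ribosomal subunit genes gave a scale for the sum. Between day 0 Treg and day 0 CD4 cells the sum differed by a log2 difference of -0.03, where 31 other small subunit genes had a median of 0.19 and a range of -0.02 to 0.47. Rps3a1 alone differed by -2.59 and Rps3a2 and Rps3a3 by 8.35 and 8.94. Between Treg and CD4 cells of Treg-treated recipients the log2 difference of the sum was -1.41, inside the range of -1.43 to -0.63 of the other 31 genes, which had a median of -0.98. Against CD8 cells it was -0.61 at day 0 (median of the 31 genes -0.32, range -0.53 to -0.01) and -1.26 in Treg-treated recipients (median -0.76, range -1.44 to 0.15). The sum thus lay below the median of its class in all 4 contrasts, inside the range of its genes in Treg-treated recipients and just under its lowest gene at day 0. Over the geometric mean of those 31 genes the sum was 1.69 and 1.76 in day 0 Treg, 1.31 to 1.34 in Treg after transplantation and 1.64 to 2.21 in the other libraries.

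Separation of all Treg from all other libraries was seen in 326 of the 16741 genes (1.95%): 164 (0.98%) had higher and 162 (0.968%) had lower values in Treg. Without CD4 syngeneic JL019-2 they were 191 and 175. All 5 members belong to them because they were chosen for it. Ranked by the gap between the nearest libraries on log2(value + 1), Rps3a3 was first of all genes with 6.43, Rps3a2 second with 6.05, Gdpd3 eighth with 3.78, Ctse ninth with 3.08 and Rps3a1 fourteenth with 2.06. A gap of at least 3 was found for 2 genes higher in Treg, Rps3a2 and Rps3a3, and for 7 lower in Treg. The next gene in the higher direction was the Treg transcription factor gene Ikzf2, with a gap of 2.71, from 11615 to 19287 in Treg and from 79.0 to 1770 elsewhere.

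**Figure D3:**
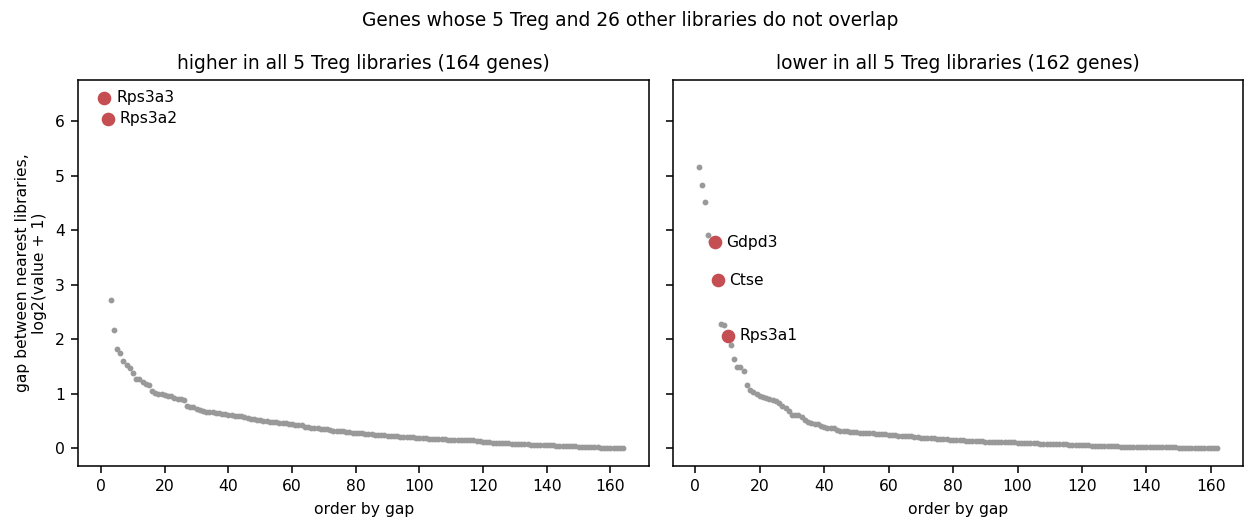
Gap between the nearest Treg and other library, in log2(value + 1), for the 164 genes higher (left) and the 162 genes lower (right) in all 5 Treg libraries, ordered by gap; red points are the 5 members. Rps3a3 and Rps3a2 stand at 6.43 and 6.05, above the 2.71 of the next gene, and Gdpd3, Ctse and Rps3a1 stand at 3.78, 3.08 and 2.06.

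Pseudogenes among the genes with the widest gaps are listed as a description, since the lists come from the contrast that chose the members. Of the 10 widest in the higher direction, 4 are pseudogenes in RefSeq: the members Rps3a2 and Rps3a3, and Cd1d2 and Ceacam-ps1. So are 4 of the 9 matched genes of the lower 10 (Gm11942, Gm15459, Gm5905 and Gm9008). The share was 6.66% over the 15875 matched genes of the table and 5.68% among matched genes of the 326, so it was not raised among all separating genes. Gm15459 had 161 to 412 in Treg and 11735 to 70841 elsewhere, a range as high as that of Rps3a1. Gm11942 was at 0.807 to 1.04 in Treg against 72.03 to 291 elsewhere. The other lower genes of the rule were H4c17, a histone gene with 0 to 3.68 in Treg and 63.9 to 493 elsewhere, Crtam, a surface receptor of activated CD8 and NK cells with 7.54 to 39.8 against 197.5 to 4323, and a gene known by its identifier only.

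Values by label prefix are given as a description, since the choice of the genes fixes that they separate within each prefix. In JL019, Ctse had 549.6 to 930.0 in 3 Treg libraries and at least 9044 in 14 others, and in JL027 793 and 1067 in 2 Treg libraries and at least 10372 in 12 others. Gdpd3 had 3.34 to 17.3 against at least 419 in JL019, and 6.87 and 8.996 against at least 250.6 in JL027. Rps3a2 had at least 6666 in Treg against at most 99.9 in JL019, and at least 6964.5 against at most 85.9 in JL027. The Y-linked gene Ddx3y had 0 to 10.7 in Treg and 0 to 12.7 in other libraries of JL019, and 1865 and 2498 in Treg and 0.717 to 1809 in other libraries of JL027.

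The label of these genes as strain-like was not tested, because the tables used here hold expression values and neither genotypes nor sequence variants. H2-Ea, which C57Bl6 mice do not transcribe and Balb/c mice do, was not analysed here. Of the other genes listed as differing between the named strains, Ly6a and Klrb1c were measured, and the Treg range of each overlapped that of the other libraries. Ly6a had 5770 to 114371 in Treg and 1972 to 162178 elsewhere, and Klrb1c 37.7 to 199 and 27.3 to 691.5. With ranges this wide an overlap cannot tell strains apart, so nothing is read from it.

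Genes around the members were compared next, with the 10 nearest measured genes on each side of each member, where 1.95% of all genes separated Treg (0.98% higher). Distances of the neighbours' starts ran from -0.91 to 0.55 Mb for Ctse and from -0.22 to 0.18 Mb for Gdpd3, but from -8.73 to 10.98 Mb for Rps3a2. None of the 20 neighbours separated Treg from the other libraries for Ctse, Gdpd3 or Rps3a2, where the neighbours' median log2 differences between the means of Treg and of the others were 0.39, -0.23 and -0.25. A count of 0 in 20 is near the share of all genes. The members themselves stood at -4.52, -6.30 and 7.80. Near Ctse the widest difference was that of Il10, an anti-inflammatory cytokine gene, with 111 to 2021 in Treg and 0 to 404.5 elsewhere. Around Rps3a1, 4 of 20 neighbours were higher in all Treg libraries, although Rps3a1 itself was lower: Lrba, a gene of vesicle trafficking needed for CTLA-4 recycling, Dclk2, Cd1d2 and Fcrl1. All 4 lie on one side, between 0.09 and 1.24 Mb from the start of Rps3a1. Cd1d2, a copy of the lipid-presenting Cd1d1, had 224 to 431.5 in Treg and 0 to 48.8 elsewhere, and Lrba 963 to 1361 in Treg and 120.2 to 923 elsewhere. Dclk2 had 398.5 to 1297 in Treg and 34.8 to 332 elsewhere, and Fcrl1 339.9 to 868.6 and 30.5 to 332.5. The log2 gap was 2.17 for Cd1d2, but 0.26 for Dclk2, 0.06 for Lrba and 0.03 for Fcrl1. Around Rps3a3, Ankrd55 was higher (290.7 to 477 against 12.3 to 203.5) and Elovl7, a fatty acid elongase gene, lower (15.9 to 35.8 against 44.1 to 1160.2).

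**Figure D4:**
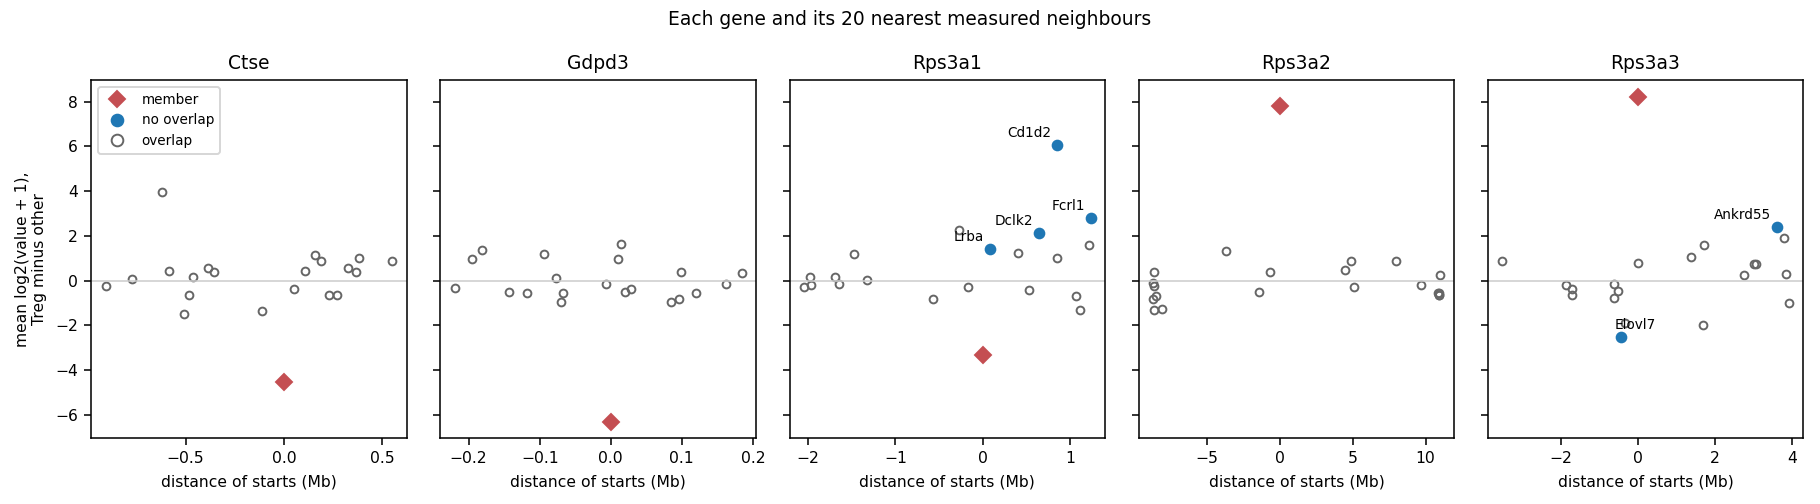
Difference of mean log2(value + 1) between the 5 Treg and 26 other libraries for each member (red diamond) and its 20 nearest measured neighbours, against the distance of the genes' starts in Mb; filled points are neighbours whose libraries do not overlap. The members at -4.52 (Ctse), -6.30 (Gdpd3) and 7.80 (Rps3a2) stand apart from neighbours that all overlap, while 4 higher neighbours lie on one side of Rps3a1. Of those 4, Cd1d2 has a log2 gap of 2.17, and Dclk2, Lrba and Fcrl1 have 0.26 or less.

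The genes most like each member over the 31 libraries included others that separate Treg. For Ctse, the highest Pearson r of log2(value + 1) were those of H4c17 (0.93), Gm15459 (0.92), Gm5905 (0.92), Gm11942 (0.92) and the cytokine receptor gene Il1rl2 (0.91). Within the 26 other libraries these r ran from -0.57 (Gm11942) to 0.54 (Il1rl2), with 0.07 for H4c17. For Gdpd3 the highest r were those of Gm5905 (0.95), Gm11942 (0.94), ENSMUSG00000116420 (0.94), Gm15459 (0.91) and Fbxo17 (0.89). Over the 26 others these ran from -0.33 (Gm15459) to 0.48 (ENSMUSG00000116420). Ctse and Gdpd3 had an r of 0.94 over 31 libraries and 0.19 over the 26 others. The libraries share one scaling, the r over 31 libraries include the contrast that chose the members, and these values are descriptions.

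Rps3a1 was most like Gm11942 (0.98), Gm5586 (0.97), Gm5905 (0.97), Lyrm7 (0.94) and H4c17 (0.94). Over the 26 other libraries these r ran from 0.61 (H4c17) to 0.87 (Gm5586). Rps3a1 had an r of -0.85 with Rps3a2 over 31 libraries and 0.73 over the 26 libraries that are not Treg. With Rps3a3 it had -0.83 and 0.64. Where the pseudogene copies were low they thus followed Rps3a1 at a small share of the sum, and within those libraries the genes closest to Rps3a1 were Rpl30 (0.98), Rps23 (0.98) and Rps16 (0.98), all ribosomal protein genes. Rps3a2 was most like Resf1 (0.85), Gm14139 (0.85), Myo3b (0.85), Syp (0.85) and 6330403K07Rik (0.84). Over the 26 other libraries these r ran from 0.007 (Syp) to 0.63 (Gm14139). Rps3a3 was most like Syp (0.88), Resf1 (0.87), Wnk1 (0.85), Gm3248 (0.85) and Ikzf2 (0.82). Over the 26 others these ran from -0.02 (Ikzf2) to 0.32 (Syp).

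The lists of related genes were set beside the 1.95% of all genes that separated Treg (0.968% lower). Of 20 other endolysosomal proteases and regulators measured, 0 separated Treg from the other libraries in either direction, and Ctsd, an aspartic protease like Ctse, had 8465 to 16008 in Treg and 12116 to 50399 elsewhere. Of 10 genes of the MHC class II pathway, in which endosomal proteases act, 0 did. Of 25 other genes of the glycerophosphodiesterase family and of lysophospholipid metabolism, 1 was lower in all Treg libraries, Naaa, a lysosomal amidase gene, with 142 to 213 against 224.8 to 4040. Gde1 and Gdpd1, relatives of Gdpd3, overlapped, with Gdpd1 at 5.84 to 20.9 in Treg and 6.597 to 159.5 elsewhere. Of 31 other small subunit genes and 4 Y-linked genes, 0 separated Treg. In lists of this size, counts of 0 and 1 are near the share of all genes, so nothing is read from them. Without CD4 syngeneic JL019-2 the counts were 0, 0, 1 (Naaa), 0 and 0.

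Summed markers of other cells overlapped between Treg and the other libraries. The summed level of 5 B cell markers was 486 to 923 in Treg and 131 to 2393 elsewhere, that of 8 myeloid and dendritic markers 1516 to 3235 against 810.5 to 849068, and that of 7 erythroid markers 120.5 to 50243.5 against 454 to 467525. The summed level of 3 NK markers was 229 to 405 against 367 to 5695, and that of 3 measured gut epithelial markers, which stand for tissues rich in Ctse, 22.3 to 106.5 against 0 to 159.5. None of the measured markers was at 0 in every Treg library. Their part in the members' levels was not tested.

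Changes within Treg and within conventional cells were not used in choosing the genes and were tested with limma on log2(value + 1), with p-values adjusted over all genes. From day 0 to Treg-treated recipients, 1 of the 5 members was called in Treg, Ctse, where 13.3% of all genes were called. Ctse fell by 0.60 ± 0.182 (SE) on the log2 scale, at a limma adjusted p = 0.0252, from 998.5 ± 96.8 (SD, n = 2) to 662 ± 122.5 (SD, n = 3), and the groups did not overlap. The call was lost without Treg day 0 replicate JL019 (limma adjusted p = 0.0756) or JL027 (0.215), and without Treg replicate JL019-1 (0.0671) or JL019-2 (0.136) of the Treg-treated recipients. With only the Treg groups in the model the adjusted p was 0.0595, and with the same total in each library the log2 change was -0.90. Gdpd3, from 13.2 ± 5.87 (SD, n = 2) to 5.72 ± 2.07 (SD, n = 3), had a log2 change of -1.06 that was not called (limma adjusted p = 0.0898), and with the same total in each library it was called, with -1.35 (0.0145). The Rps3a sum had -0.66 (SE 0.319, limma adjusted p = 0.195), and 0 of 31 other small subunit genes were called, with a median of -0.32. The sum was called when each library was given the same total, with a log2 change of -0.96 (limma adjusted p = 0.00424), after quantile normalisation, with -0.98 (0.000204), and with only the Treg groups in the model, with -0.66 (0.00654). In that last model all 3 copies were called, at limma adjusted p of 0.00466 for Rps3a3, 0.0105 for Rps3a2 and 0.0276 for Rps3a1. Of the 20 other proteases and regulators, 6 rose in the same comparison (Cst7, Ctsa, Ctsb, Ctsc, Ctsd and Lgmn) and 0 fell, with Lgmn, an asparaginyl endopeptidase, at a log2 change of 2.33 (SE 0.339). In these libraries 4 of 7 erythroid markers rose too (median log2 change 4.24), with summed levels of 120.5 to 455 at day 0 and 1670 to 50243.5 afterwards. Of 8 myeloid and dendritic markers, Itgam and Zbtb46 rose and Csf1r fell, with summed levels of 2193 to 3235 and 1516 to 2751. Of 3 NK markers Eomes rose and Ncr1 fell, and of 3 gut epithelial markers 0 were called. Of 10 genes of the MHC class II pathway, Cd74, H2-DMb1 and H2-Eb1 rose and H2-Ob fell (median 1.38). Of 10 Treg markers, Ctla4, Tnfrsf18 and Tnfrsf4 rose and Gpr83 and Nrp1 fell, and of 3 CD8 markers Runx3 rose. The part of these markers in the changes was not tested.

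CD4 and CD8 cells differed in Ctse after transplantation. Ctse was highest in CD4 allogeneic cells, at 28178 ± 2340 (SD, n = 4), followed by CD4 Treg-treated cells at 21442 ± 2256 (SD, n = 4), with no overlap between these groups. CD8 allogeneic cells (18514 ± 1700, SD, n = 4), CD4 syngeneic cells (18367 ± 2448, SD, n = 3), CD4 day 0 cells (17273 ± 785.5, SD, n = 2), CD8 Treg-treated cells (15677 ± 1781, SD, n = 4) and CD8 day 0 cells (15259 ± 1746, SD, n = 2) came next, each overlapping the group before it. CD8 syngeneic cells were lowest of the conventional groups, at 9748 ± 667 (SD, n = 3), below all others without overlap.

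In the allogeneic recipients, 1 of 5 members was called between CD8 and CD4 cells, where 6.15% of all genes were called. Ctse was lower in CD8 cells by a log2 change of -0.61 ± 0.141 (SE) at a limma adjusted p = 0.00727, with 16045 to 19877 in CD8 and 24840.2 to 30247 in CD4 libraries. That call was kept under every alternative run and without each library in turn. Gdpd3 was called in addition with only these groups in the model, with -0.79 (limma adjusted p = 0.0282). Of 20 other proteases and regulators, 0 were higher and 4 lower in CD8 cells (Ctsa, Ctsl, Ctss and Lgmn). Of other markers, Tff1 (gut epithelium), Eomes and Klrb1c (NK) and Cd79b (B cell) were higher and Pax5 (B cell), Cd74 (MHC class II) and 4 of 10 Treg markers (Gpr83, Itgae, Nrp1 and Tnfrsf4) lower in the same CD8 libraries, and their part was not tested. In the syngeneic controls Ctse was the 1 member called (12% of all genes), with a log2 change of -0.91 ± 0.163 (SE) at a limma adjusted p = 0.000306 and of -0.81 (0.00275) without the doubtful CD4 library JL019-2, and an adjusted p of 0.136 with only these groups in the model. In these libraries 4 of 20 other proteases and regulators were higher and 5 lower in CD8 cells, among them Ctsw, a protease of cytotoxic cells, with a log2 change of 3.92 (SE 0.296) and Lgmn with -3.58 (SE 0.303). Other markers were lower in the same CD8 libraries: 5 of 8 of the myeloid and dendritic list (median log2 change -2.41), 7 of 10 genes of the MHC class II pathway with 1 higher (median -2.76), 1 of 7 erythroid markers, Krt18 of 3 gut epithelial markers and Cd79a of 5 B cell markers. Cd79b and the NK markers Eomes and Klrb1c were higher. Treg markers were lower in CD8 cells in 8 of 10 cases and higher in 1 (median -3.03). The summed myeloid and dendritic level was 10968 to 14748 in CD8 and 17196 to 849068 in CD4 syngeneic libraries. Without CD4 syngeneic JL019-2, 4 proteases and regulators were higher and 1, Lgmn, was lower, with Ctsw at 4.04 and Lgmn at -3.52 (limma adjusted p = 9.09e-10 and 2.1e-08). The myeloid and dendritic list then had 1 of 8 lower (median -0.91), the MHC class II list 2 of 10 lower and 1 higher (median -0.95) the erythroid and gut epithelial lists 0 of 7 and 0 of 3, and the Treg list 8 of 10 lower (median -3.78). The part of these cells in the changes was not tested. At day 0, limma called 0 of 5 members between CD8 and CD4 cells and 0 had an unadjusted p under 0.05, where 3.32% of all genes were called. With only these groups in the model Gdpd3 was called, with -0.81 (limma adjusted p = 0.00727).

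In Treg-treated recipients, 2 of 5 members were called between CD8 and CD4 cells, both lower in CD8, where 9.61% of all genes were called. Gdpd3 had 251 (JL027-1), 287 (JL027-2), 527 (JL019-1) and 817.5 (JL019-2) in CD8 and 643 (JL027-1), 950.4 (JL027-2), 1186 (JL019-1) and 1449.9 (JL019-2) in CD4 libraries, so the groups overlapped, while the CD8 value was the lower one in each of the 4 recipients. The log2 change was -1.27 (SE 0.316, limma adjusted p = 0.00881), and -1.02 (0.0562) without CD8 Treg-treated replicate JL027-1 and -1.09 (0.0504) without JL027-2. With only these groups in the model the adjusted p was 0.123 for Gdpd3 and 0.286 for Ctse. Ctse had a log2 change of -0.45 ± 0.141 (SE) at a limma adjusted p = 0.0396, which stayed called only without CD8 Treg-treated replicate JL019-1. Leaving out any other library of the 2 groups (CD4 JL019-1, JL019-2, JL027-1 and JL027-2, CD8 JL019-2, JL027-1 and JL027-2) gave limma adjusted p between 0.0512 and 0.0991, and quantile normalisation gave 0.105. Of 20 other proteases and regulators, 1 (Ctsd) was higher and 4 (Bace2, Ctsl, Ctss and Lgmn) were lower in these CD8 libraries. Of other markers, Eomes and Cd79b were higher there. Cd79a and Pax5, the MHC class II genes Cd74 and H2-DMa and the Treg markers Gpr83, Tnfrsf18 and Tnfrsf4 were lower. The part of these genes was not tested.

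In allogeneic CD4 cells Ctse was higher and Gdpd3 lower than at day 0. From day 0 to allogeneic CD4 cells 2 of 5 members were called, where 24% of all genes were called. Gdpd3 fell from 2061 and 1770 to 852, 863, 636.5 and 633 without overlap, a log2 change of -1.37 ± 0.387 (SE) at a limma adjusted p = 0.00977. Ctse rose from 17828 and 16717 to between 24840.2 and 30247, a log2 change of 0.70 ± 0.173 (SE) at a limma adjusted p = 0.00323. With the same total in each library the change of Ctse was 0.43 (0.112), after quantile normalisation 0.40 (0.185), and without CD4 day 0 replicate JL027 0.66 (0.06). Without CD4 day 0 replicate JL019 or JL027, Gdpd3 had -1.26 (0.11) and -1.48 (0.0559).

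In CD8 cells 1 of 5 members was called from day 0 to allogeneic recipients, where 30.4% of all genes were called and the median of all genes was -0.13. Gdpd3 fell from 1038 and 1147 to 549, 419, 461 and 313, also without overlap, with a log2 change of -1.35 ± 0.387 (SE) at a limma adjusted p = 0.00904. Without CD8 day 0 replicate JL019 it was -1.42 (0.0563) and without JL027 -1.28 (0.0614). Ctse had 0.28 there (SE 0.173, limma adjusted p = 0.227). The difference of this change between CD8 and CD4 cells was tested for the 5 members and none was called. It was -0.42 for Ctse (SE 0.244, limma adjusted p = 0.792) and 0.02 for Gdpd3 (SE 0.547, limma adjusted p = 1), where 0.962% of all genes were called. Of 20 other proteases and regulators, 9 rose and 2 fell in CD4 cells and 8 rose and 7 fell in CD8 cells. Of 25 other genes of the Gdpd3 list, 7 rose and 1 fell in CD4 cells and 6 rose and 3 fell in CD8 cells. Gde1, a relative of Gdpd3, rose by 1.36 (SE 0.224) in CD4 and 1.13 (SE 0.224) in CD8 cells, and Gdpd5 by 1.40 (SE 0.484) and 1.60 (SE 0.484). Markers of other cells moved in the same comparisons. Of 5 B cell markers, 3 fell in CD4 and 4 in CD8 cells, of 8 myeloid and dendritic markers 2 rose in each and 3 fell in CD8 cells, and of 7 erythroid markers 1 fell in CD4 and 2 in CD8 cells. Of 3 NK markers Eomes rose in CD4 and Ncr1 fell in CD8 cells. Of 3 gut epithelial markers, Tff1 rose in both (medians of the list 1.55 and 3.12), and their summed level went from between 2.51 and 8.42 to between 22.4 and 42.1 in CD4 and from 11.6 and 14.1 to between 102 and 155.5 in CD8 cells. Of 10 Treg markers, which activated conventional T cells can also express, 5 rose and 2 fell in CD4 cells (median 1.01), and 7 rose, Foxp3 and Lrrc32 among them, and 2 fell in CD8 cells (median 3.17). Of 10 MHC class II genes, H2-Oa rose and H2-Ob fell in CD4 cells, and Cd74, Ciita, H2-DMb2 and H2-Ob fell in CD8 cells (median -1.64). Runx3 rose in CD4 and Zbtb7b, a CD4 marker, in CD8 cells. Their part in the changes was not tested.

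Rps3a1 and the sum, not called in allogeneic against day 0 cells, were called in some fits with rescaled libraries. With the same total in each library the sum had -0.76 (limma adjusted p = 0.00833) in CD8 cells, while in CD4 cells neither was called. After quantile normalisation the sum had -0.91 (0.000135) in CD8 and -0.53 (0.0199) in CD4 cells.

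Against syngeneic controls, Ctse was the 1 member called in each cell type, and it was higher in allogeneic cells. In CD8 cells the libraries ran from 9044 to 10372 in syngeneic and from 16045 to 19877 in allogeneic recipients, a log2 change of 0.92 ± 0.152 (SE) at a limma adjusted p = 4.8e-05, where 21.1% of all genes were called. That call was kept under every alternative and without each library in turn. In CD4 cells the change was 0.62 (SE 0.152, limma adjusted p = 0.00506), and 0.72 (0.00405) without the doubtful syngeneic library JL019-2, where 14.6% of all genes were called. With only the compared groups in the model the CD4 adjusted p was 0.0637. The CD8 minus CD4 difference of the change was called for none of the 5 members, where 4.65% of all genes were called, and was 0.30 for Ctse (SE 0.215, limma adjusted p = 0.555), and 0.20 (0.746) without that library. The Rps3a sum was not called, with -0.62 (limma adjusted p = 0.101) in CD8 and -0.53 (0.209) in CD4 cells. It was called with the same total in each library in CD8 cells (-0.55, limma adjusted p = 0.0383). After quantile normalisation the sum was called in CD8 (-0.48, 0.0213) and CD4 cells (-0.55, 0.00967). Of 31 other small subunit genes, 9 fell in CD8 (median -0.74) and 2 in CD4 cells (median -0.52). Without CD4 syngeneic JL019-2, 0 of these 31 genes fell in CD4 cells (median -0.29), and Rps3a1 had -0.39 (0.548). Among the 20 other proteases and regulators, 7 rose and 4 fell in CD4 cells, with Ctsd at 1.21 (SE 0.16), and 5 rose and 5 fell in CD8 cells. In CD4 cells 6 of 8 myeloid and dendritic markers (median log2 change -3.22) and 3 of 7 erythroid markers fell in the same comparison, with summed myeloid and dendritic levels of 17196 to 849068 in syngeneic and 1906 to 2832 in allogeneic libraries. The NK marker Ncr1, the CD8 markers Cd8a and Cd8b1 the B cell marker Blk and the MHC class II genes Ciita, H2-Aa and H2-Ob fell there too, while the third CD8 marker, Runx3, and Pax5 (B cell), Cd40lg (CD4) and Tff1 (gut epithelium) rose. The Treg list had 5 of 10 rising and 1 falling (median 1.49). Without CD4 syngeneic JL019-2, 7 proteases and regulators rose and 2 fell in CD4 cells, Ctsd had 1.33 (limma adjusted p = 3.76e-06), 4 of 8 myeloid and dendritic markers fell (median -1.95) and 2 of 7 erythroid markers fell. Cd8a, Cd8b1 and H2-Ob then still fell, Pax5, H2-Oa and the NK marker Klrb1c rose, 5 of 10 Treg markers rose and 2 fell (median 0.87), and 0 of 3 gut epithelial markers were called. In CD8 cells 2 of 8 myeloid and dendritic markers rose and 2 fell, with summed levels of 10968 to 14748 in syngeneic and 2953 to 3356.5 in allogeneic libraries. Of 10 Treg markers 8 rose (Ctla4, Foxp3, Ikzf2, Il2ra, Lrrc32, Nrp1, Tnfrsf18 and Tnfrsf4) and 2 fell (median 3.71), with summed levels of 4232 to 7257 in syngeneic and 32258 to 41979.9 in allogeneic CD8 libraries. The CD4 markers Cd40lg and Zbtb7b rose too, while the erythroid marker Klf1, the NK marker Eomes and H2-Ob fell. Of 3 gut epithelial markers, which stand for tissues rich in Ctse, Krt18 and Tff1 rose in CD8 cells (median of the list 3.79), and their summed level was 0 to 4.66 in syngeneic and 102 to 155.5 in allogeneic libraries. The part of these cells in the changes was not tested.

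Treg treatment was compared with untreated GVHD in conventional cells. In CD4 cells 4 of 5 members were called, where 22.2% of all genes were called. Ctse fell from 30247, 24840.2, 28492 and 29132 to 19820.3, 19643.9, 24484.5 and 21820.4, without overlap, a log2 change of -0.40 ± 0.141 (SE) at a limma adjusted p = 0.0444. The call of Ctse stayed without CD4 Treg-treated replicate JL027-1 and was lost without each of the other 7 libraries (Treg-treated JL019-1, JL019-2 and JL027-2 and all 4 allogeneic ones), at limma adjusted p between 0.0568 and 0.129. With only these groups in the model the adjusted p was 0.0789, with the same total in each library the log2 change was -0.62, and after quantile normalisation it was -0.75. Of 20 other proteases and regulators, 3 rose (Cst7, Cstb and Ctss) and 2 fell (Ctsd and Tpp1). Markers moved in the same comparison. Of 5 T cell markers 3 rose (Cd3d, Cd3g and Trbc2), as did Tff1 of the gut epithelial and Ncr1 of the NK list. Itgam of the myeloid and dendritic list fell. Of 10 Treg markers Tnfrsf18 and Tnfrsf4 rose and 0 fell (median -0.50), with summed levels of 55169.9 to 130203 in Treg-treated and 48613 to 63097 in allogeneic CD4 libraries. The summed myeloid and dendritic level was 3154 to 14434 in Treg-treated and 1906 to 2832 in allogeneic CD4 libraries, without overlap. The summed gut epithelial level was 34.4 to 92.4 against 22.4 to 42.1. Of 7 erythroid markers 0 were called (median 3.0), with summed levels of 5511 to 62581 against 454 to 10738. The part of these markers in the changes was not tested, here and for the Rps3a copies.

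The Rps3a sum rose in the same comparison, from between 16364 and 21439 to between 23854 and 42060, a log2 change of 0.89 ± 0.247 (SE) at a limma adjusted p = 0.0175. All 31 of 31 other small subunit genes rose too, with a median of 1.00, so the sum moved with its class. Rps3a1 rose by 0.88 (SE 0.249, limma adjusted p = 0.0179), Rps3a2 by 1.37 (SE 0.454, limma adjusted p = 0.0332) and Rps3a3 by 1.64 (SE 0.597, limma adjusted p = 0.0489). Rps3a2 and Rps3a3 stayed at 12.8 to 85.9 in Treg-treated CD4 cells, where no Treg library was below 3667. Rps3a1 and the sum lost the call without CD4 allogeneic JL019-2 or without CD4 Treg-treated JL019-1, JL019-2 or JL027-2, at limma adjusted p between 0.0564 and 0.064. Rps3a2 kept it only without CD4 allogeneic JL027-2 or CD4 Treg-treated JL027-1, and otherwise had limma adjusted p between 0.058 and 0.108. Rps3a3 was called without CD4 allogeneic JL019-1 or JL027-1 or CD4 Treg-treated JL027-1. Without CD4 allogeneic JL027-2, where it is listed at 0, its change was 0.68 (0.269), and without the other 4 libraries its limma adjusted p was between 0.0613 and 0.141. With the label prefix as a replicate block it was 0.0525, and under the other settings but the filters and the recipient block between 0.0578 and 0.154. With the same total in each library Rps3a2 had 0.0509. The mean normalised count per gene was 1608 to 2118 in the Treg-treated and 1504 to 1669 in the allogeneic CD4 libraries. The part of that difference in these changes was not tested, and with the same total in each library the sum rose by 0.66 (limma adjusted p = 0.0161).

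In CD8 cells limma called 0 of 5 members between Treg-treated and allogeneic recipients and 0 had an unadjusted p under 0.05, where 0.0657% of all genes were called. Ctse had a log2 change of -0.24 (SE 0.141), Gdpd3 of -0.02 (SE 0.316) and the Rps3a sum of 0.37 (SE 0.247). The CD8 minus CD4 difference of the Treg effect was called for none of the 5 members, where 0.00597% of all genes were called. For Rps3a2 it was -1.40 (SE 0.643, limma adjusted p = 0.898), and for Ctse 0.15 (SE 0.199, limma adjusted p = 0.905). Effects called in CD4 and not in CD8 cells are thus not shown to differ between them.

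**Figure D5:**
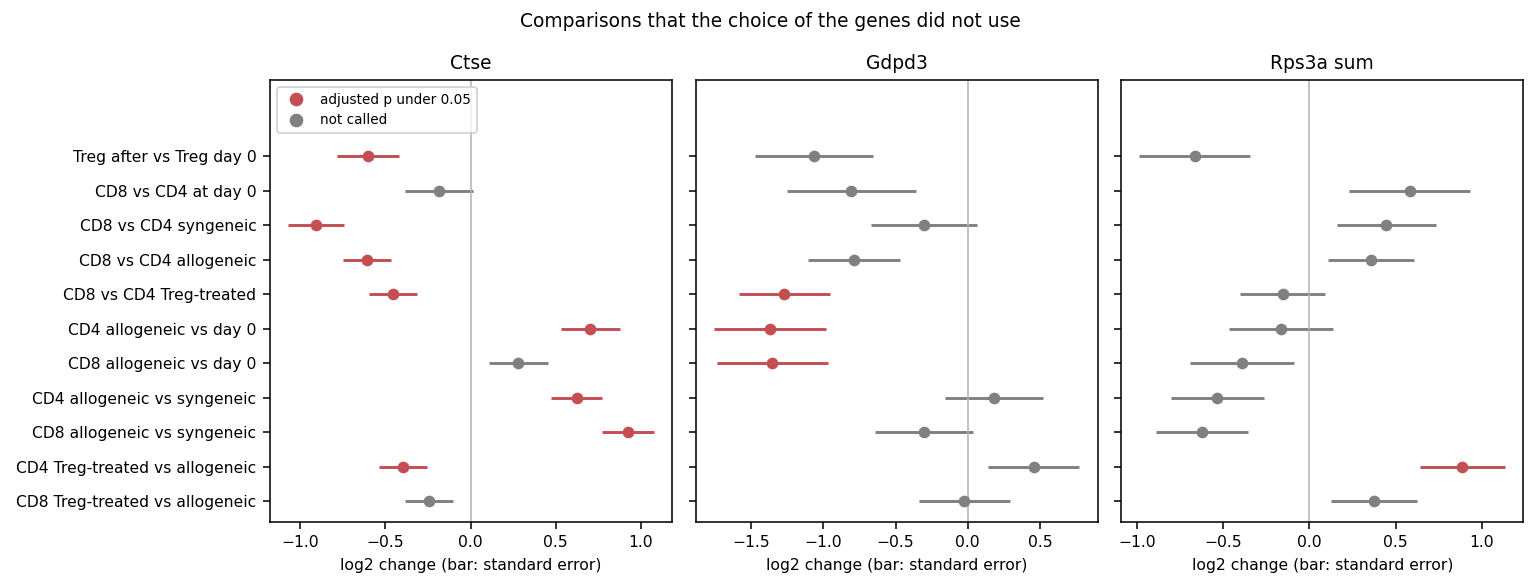
Log2 change with its standard error (bars) for Ctse, Gdpd3 and the Rps3a sum in the 11 comparisons that the choice of the genes did not use; red points have a limma adjusted p under 0.05. Ctse is called in 8 comparisons, Gdpd3 in 3 and the sum in 1, CD4 Treg-treated against allogeneic.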

How the data were processed

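The authors deposited one table of 31 bulk RNA libraries, whose values are a signal, normalised counts, with the columns of a DESeq2 results table per the file headers. The submitters' processing notes name FastQC 0.11.7, kallisto, DESeq2 and the builds GRCm38 and mm10, with no role or order. The authors' own log2 fold change, p-value and statistic columns do not say which groups they compare and were left out, as were the T-cell receptor tables. Full-length cDNA was made with SMARTer v4 and libraries with Nextera XT, per the labels' protocols, and this chemistry does not mark strand. Values are not whole and reads were not recovered, so depth is unknown and no interval for counting error can be given. 1 gene without a symbol was kept under its identifier.

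limma 3.58.1 in R 4.3.3 (trend and robust options) was fitted to log2(value + 1) in a group-means model over all 31 libraries, which understates changes of low values. A minimum mean value of 1 removed 0 genes. Benjamini-Hochberg adjustment ran over all 16741 genes at 0.05, for 11 contrasts and 3 differences between CD8 and CD4 cells, the latter added after the values were seen. The Rps3a sum was fitted in a table where it replaced the copies. The fit was tested on simulated data. The members and gene lists were chosen with earlier results of these data known. Named genes were the members, the lists' genes, the 5 genes most like each member, the 10 with the widest gap in each direction and the 10 measured neighbours on each side, and only some are printed. Il10, Pde4d and the genes closest within the 26 other libraries were chosen after their values were seen. Coordinates, gene classes and promoters are those of RefSeq on GRCm38.p6, the files' build. 15875 genes matched by identifier or symbol.

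Libraries of the same prefix, treatment and number were read as one recipient. Over 15 pairs of such libraries the correlation of deviations from the group means across genes was -0.11 to 0.43 (median 0.14). The replicate block, by recipient or by prefix, was an alternative, beside pseudocounts of 0.1 and 10, a minimum mean of 10 or none, the same total per library, quantile normalisation, only the compared groups and leaving out each library. Gene lists were also fitted without CD4 syngeneic JL019-2, chosen after its marker levels were seen. Python 3.11.15, numpy 2.4.6, pandas 2.3.3 and matplotlib 3.10.9 were used.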

Additional observations from a re-analysis of the deposited data

Results flagged for a closer look

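Groups of 4 libraries were checked for a single library far from the others, for each of the 5 genes and the Rps3a sum. Of these 24 checks 2 stood out, where chance alone exceeds the limit in about 1 in 20 independent checks. Both are the same library, in which Rps3a1 held 99.75% of the sum, so they count as 1 observation. In CD8 allogeneic replicate JL027-1, Rps3a1 was 33765.3 and the Rps3a sum 33850.2, the highest of 4, where the next highest library of the group had 22924.9 and 22980.7. The gap to the next library made up 0.868 and 0.866 of the group's range, above Dixon's critical value for 4.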

How the results depend on the processing

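Of 242 alternatives for single members and the Rps3a sum in the called comparisons, 182 kept the call, 60 lost it and 0 changed direction. With the recipient as a replicate block every one of these calls was kept, and with the label prefix as a replicate block every call but that of Rps3a3 in CD4 Treg-treated against allogeneic (1.64, limma adjusted p 0.0525) was. The number of the 5 members called moved as follows, and the cause was not tested. For Treg from Treg-treated recipients against day 0 (1) it was 3 with the same total per library, 2 after quantile normalisation, 3 with only the compared groups and 0 to 1 without single libraries. For CD8 against CD4 cells with only the compared groups it was 1 at day 0 (from 0), 0 in syngeneic (from 1), 2 in allogeneic (from 1) and 0 in Treg-treated recipients (from 2), and in the last it was 1 after quantile normalisation and 0 to 2 without single libraries. For allogeneic against day 0 it was 1 in CD4 (from 2) and 2 in CD8 cells (from 1) with the same total, 2 in CD8 cells after quantile normalisation, and without single libraries 0 to 2 in CD4 and 0 to 1 in CD8 cells. For allogeneic against syngeneic it was 2 in CD4 cells after quantile normalisation and 0 with only the compared groups (from 1), and 2 in CD8 cells with the same total and after quantile normalisation (from 1). For CD4 Treg-treated against allogeneic (4) it was 3 with a pseudocount of 0.1 or 10, after quantile normalisation and with the label prefix as a replicate block, 2 with the same total, 2 with only the compared groups and 0 to 4 without single libraries. The log2 gap of Ctse (3.08) was 2.57 with the same total and 2.78 after quantile normalisation, and 3.08 to 3.28 without single libraries. That of Gdpd3 (3.78) was 3.25 with a pseudocount of 10, 3.31 with the same total, 4.77 after quantile normalisation and 3.78 to 4.65 without single libraries. All 5 members stayed separated under each of these settings, and the sum overlapped under each. The members were chosen for that separation, and leaving out a library can only keep or widen a gap, so this is a description. Groups of 2 libraries and the unknown depth limit all values, and those of single Rps3a copies rest on how reads were assigned.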
